A study of Homo sapiens with 12 samples.

Results

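The genes described here encode the SLC25 family of mitochondrial carriers, followed through CPSF6 silencing and a block of transcription in HepG2 cells, a human liver cancer line often used in place of hepatocytes. Members were the protein-coding genes with a symbol of the form SLC25A plus a number and a mean normalized count of at least 20 over the 12 libraries. This rule took 38 of the 46 SLC25A genes in the table, out of 12939 genes at that level and 22148 gene entries in all. Cells had received either a control siRNA (siNC) or siRNAs against CPSF6 (siCPSF6), which encodes a subunit of cleavage factor Im, a complex that binds nascent RNA and takes part in choosing its 3′ end. After 48 h of culture, actinomycin D, which blocks transcription, was given at 5 µg/ml, and RNA was taken at 0, 3 and 6 h. Each of the 6 groups (siNC or siCPSF6, each at 0, 3 or 6 h) held 2 biological replicates, and all were HepG2 cells carried through a transfection. The study was set up as an assay of RNA stability, so its comparisons ask how silencing changed the level of an mRNA and how much of it was left once transcription had stopped.

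SLC25 proteins lie mostly in the inner mitochondrial membrane, and each moves a small set of solutes between the cytosol and the matrix. Most work as exchangers with a fold of repeated membrane helices, and they are made in the cytosol and inserted by the TIM22 route. Liver cells rely on them for ATP export, for the urea cycle and the malate-aspartate shuttle, for citrate export to lipid synthesis and for the entry of acylcarnitines, cofactors and iron.

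CPSF6 itself served as the check of the labels. In siNC its normalized counts were 2147 and 2082 at 0 h, 3389 and 3309 at 3 h and 3469 and 3443 at 6 h, and in siCPSF6 they were 768 and 718, 674 and 801, and 810 and 732. All silenced libraries lay below all control libraries, with a fold of 0.258 over the 3 times (log2 difference -1.95, SE 0.05, limma adjusted p = 2.8e-13). Normalized counts summed to 19133288 to 33352246 per library. The spacing of the rounded values gave a rough estimate of 21800000 to 30300000 reads. The match of observed to predicted spacing (a correlation) was 0.472 to 0.793, and weakest for the highest estimate (siCPSF6 3 h replicate 1). All 10 hepatocyte and HepG2 markers were present (summed TPM 23686.0 to 35730.9), while the median TPM of COL3A1 and of VWF was 0. Other stromal and endothelial markers were detected at low levels. PDGFRB ran from 2.01 to 10.97 TPM, COL1A1 from 0.08 to 0.87, PECAM1 from 0.22 to 1.12 and CDH5 from 0 to 0.17. The summed TPM of the stromal markers was 2.2 to 4.0 in siNC and 5.3 to 11.3 in siCPSF6, and CD68 reached 18.5 to 39.8 TPM over the libraries; their part in the results was not tested. These are bulk libraries, in which fewer cells of a type and less RNA per cell cannot be told apart.

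Read per unit of transcript length (TPM), the family was dominated by the carriers of ATP synthesis. The phosphate carrier SLC25A3 had the highest level, with a mean of 755.92 TPM and a range of 630.32 to 898.37 over the 12 libraries. Next came the ADP/ATP carriers SLC25A5, at a mean of 415.55 TPM, and SLC25A6, at 352.68 TPM. The table lists SLC25A6 under an X entry and a pseudoautosomal copy with nearly the same values, which sum to a mean of 705.6 TPM, so its rank depends on whether the copies hold the same reads. The glutathione carrier SLC25A39 followed at a mean of 276.82 TPM. With both SLC25A6 entries counted, these 4 genes made up 72.4% to 83.0% of the family's summed TPM, which itself ran from 2417 to 3093.

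**Figure D1:**
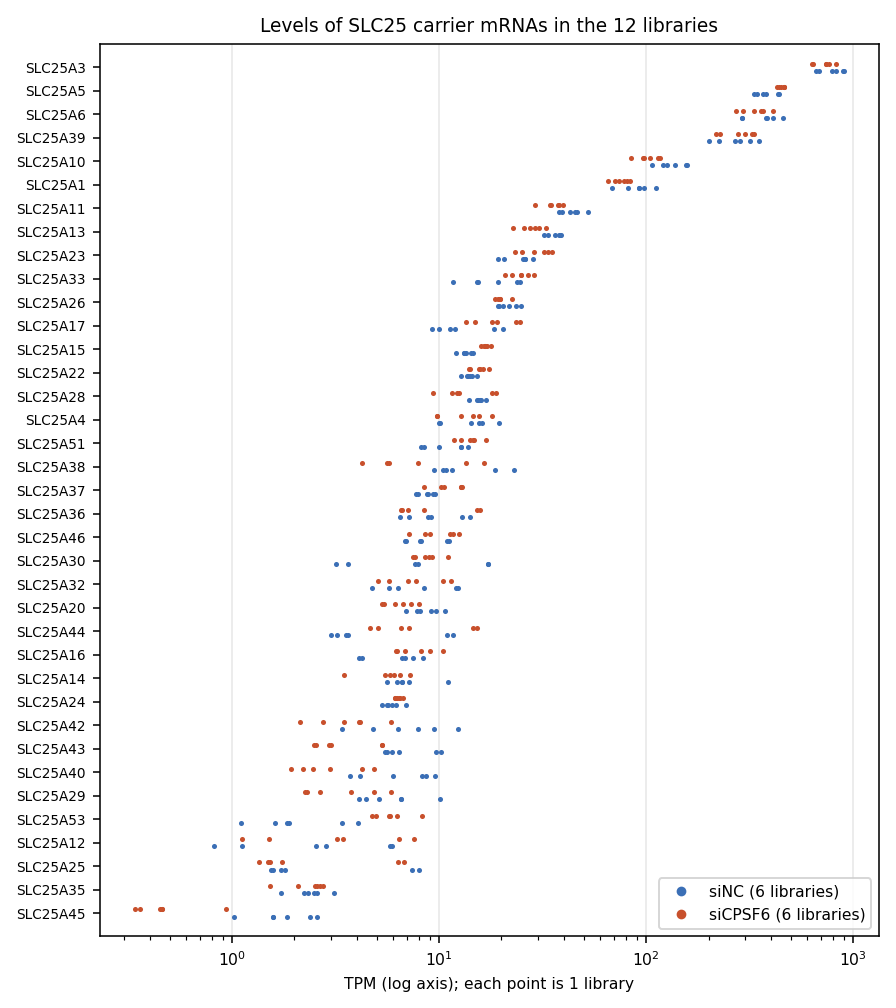
Levels of 37 SLC25 carrier mRNAs in TPM (log axis), 1 point per library, blue for the 6 siNC and red for the 6 siCPSF6 libraries, ordered by mean. SLC25A3 lies highest (630.32 to 898.37 TPM) and SLC25A45 lowest (0.34 to 2.58 TPM), where the silenced libraries lie to the left of the control libraries.

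Below these lay the dicarboxylate carrier SLC25A10 (mean 117.92 TPM) and the citrate carrier SLC25A1 (83.09 TPM), the 2-oxoglutarate carrier SLC25A11 (39.72 TPM) and the liver aspartate/glutamate carrier citrin, SLC25A13 (32.02 TPM). Its paralog SLC25A12, the aspartate/glutamate carrier of muscle and brain, had a mean of 3.53 TPM, and SLC25A4, the ADP/ATP carrier of heart and muscle, had 13.83 TPM. The range of SLC25A3 over the libraries did not meet that of SLC25A5, and that of SLC25A39 did not meet that of SLC25A10, while the ranges of SLC25A5, SLC25A6 and SLC25A39 overlapped from 1 to the next, as did those of SLC25A10 and SLC25A1. The lowest member was SLC25A45, at a mean of 1.17 TPM.

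Silencing moved members of the family in both directions. Averaged over the 3 times, 25 of 38 members passed the test (limma, Benjamini-Hochberg adjusted p under 0.05), 9 higher and 16 lower in siCPSF6, against 69.8% of all genes tested, of which 34.4% were higher and 35.4% lower. The members' median log2 difference was -0.08, against -0.01 over all genes, and their median absolute difference was 0.203, against 0.324. Calls of small differences depended on the scale. With spike-in scaling SLC25A3, SLC25A6 and SLC25A26 no longer passed, at differences of -0.17, -0.16 and -0.18. Their standard errors there were 0.08, 0.08 and 0.11, against 0.04, 0.05 and 0.06 on the main scale. SLC25A15, SLC25A22 and SLC25A23 also did not pass with spike-ins (0.15, 0.17 and 0.13). In TPM the calls of SLC25A14 (-0.32, SE 0.16), SLC25A22 (0.15), SLC25A26 (-0.12) and SLC25A36 (-0.02) were lost. At 0 h alone, 13 members passed, 4 higher and 9 lower, against 42.9% of all genes (21.8% higher and 21.1% lower). The average contains the 0 h libraries, so these comparisons share samples. With the replicate number as a block, 7 members were higher at 0 h and 10 lower, where 6549 of 12939 genes were called, 51.1% of them higher. Of all genes called at 0 h in the main fit, 50.8% were higher, against 34.4% with spike-in scaling. For 16 members the counts of the arms did not overlap at any of the 3 times and differed in 1 direction, 7 higher and 9 lower, which was so for 43.9% of all genes.

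**Figure D2:**
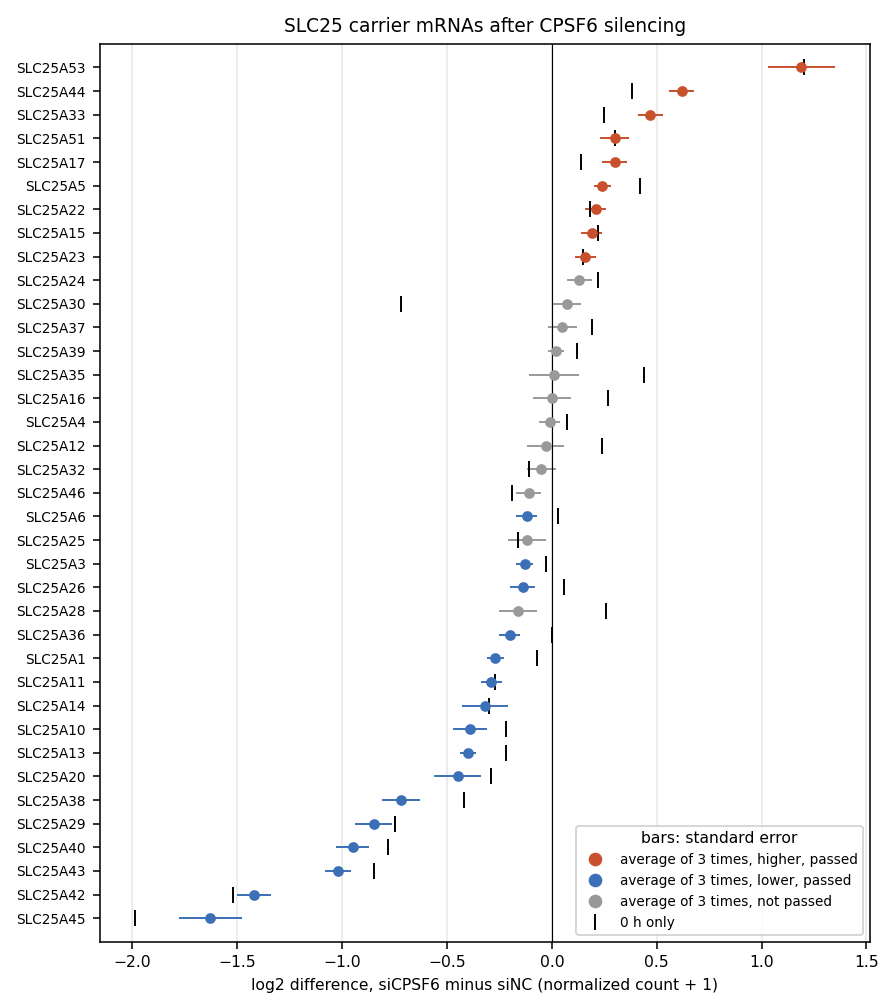
Log2 difference of normalized count, siCPSF6 minus siNC, for 37 members. Circles are the average over 0, 3 and 6 h with bars of 1 standard error (red, higher and passed; blue, lower and passed; grey, not passed), and black ticks are the 0 h value alone. Values run from -1.63 for SLC25A45 to 1.19 for SLC25A53, and the tick of SLC25A30 stands far from its circle.

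Among the carriers of ATP, ADP and phosphate, 2 of 7 members rose, 2 fell and 3 did not pass in the average over times, with a range of -0.13 to 0.24. Over all genes tested, 34.4% were higher and 35.4% lower. SLC25A5 was the member of this group with the largest rise, and the only one to pass at 0 h. It had 6495 and 6070 normalized counts in siNC at 0 h, 10534 and 10240 at 3 h and 15243 and 14263 at 6 h, against 8617 and 8168, 12671 and 12710, and 14787 and 14987 in siCPSF6. The silenced libraries were higher at 0 and 3 h and lay within the control range at 6 h. The rise was 0.42 at 0 h (SE 0.06, limma adjusted p = 0.00011) and 0.24 over the 3 times (SE 0.04, adjusted p = 3.1e-05); with spike-in scaling the 0 h value was 0.31 (adjusted p = 0.12). SLC25A5 has processed pseudogenes elsewhere in the genome and an antisense gene, SLC25A5-AS1, whose reads the counting could have shared with it.

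Its paralogs moved less. SLC25A4 differed by -0.01 (limma adjusted p = 0.83). SLC25A6 fell by 0.12 (adjusted p = 0.046), a call lost without any 1 of 7 libraries (siNC 0 h replicates 1 and 2, 3 h replicate 1 and 6 h replicate 1, siCPSF6 0 h, 3 h and 6 h replicate 2; -0.13 to -0.08, adjusted p 0.069 to 0.14). SLC25A3 had 9091 and 8658 counts in siNC at 0 h, 14981 and 14751 at 3 h and 19777 and 19148 at 6 h, and 8818 and 8564, 13180 and 13650, and 16303 and 17041 in siCPSF6. Its arms overlapped at 0 h and the silenced libraries were lower at 3 and 6 h, so that it fell by 0.13 over the times (SE 0.04, limma adjusted p = 0.0033). Of the calcium-regulated ATP-Mg/phosphate carriers, SLC25A23 rose by 0.16 (adjusted p = 0.011), SLC25A24 differed by 0.13 (adjusted p = 0.058) and SLC25A25 by -0.12 (adjusted p = 0.23).

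All 3 di- and tricarboxylate carriers tested fell in the average, by small amounts, where 35.4% of all genes tested were lower. SLC25A21, of the same role, had a mean count of 19.2 and was not tested. The difference was -0.39 for SLC25A10 (limma adjusted p = 0.00093), -0.29 for SLC25A11 (adjusted p = 8.4e-05) and -0.27 for SLC25A1 (adjusted p = 6.5e-05). SLC25A10 had 3072 and 3658 counts in siNC at 0 h, 5525 and 6535 at 3 h and 7768 and 8287 at 6 h, against 2660 and 3134, 4037 and 5097, and 5129 and 5919 in siCPSF6. Its arms overlapped at 0 h and stood apart at 3 and 6 h. SLC25A11 alone of the 3 passed at 0 h (-0.27, limma adjusted p = 0.022), and not without siNC replicate 2 or either siCPSF6 replicate of that time (-0.27 to -0.17). Its 0 h call was also lost with median-ratio scaling (adjusted p = 0.055) and with spike-ins (adjusted p = 0.11). SLC25A11 shares its locus with the opposite-strand gene RNF167.

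Of the 10 carriers of amino acids, ornithine, glutathione and carnitine, the largest group, 5 fell, 3 rose and 2 did not pass, beside 35.4% lower and 34.4% higher of all genes. SLC25A40, a paralog of the glutathione carrier SLC25A39, had 282 and 278 counts in siNC at 0 h, 401 and 338 at 3 h and 383 and 390 at 6 h, against 167 and 159, 174 and 175, and 173 and 215 in siCPSF6. All silenced libraries lay below all control libraries, and the fold was 0.518 (log2 difference -0.95, SE 0.08, limma adjusted p = 3.6e-08). Its locus overlaps DBF4 on the other strand. SLC25A39, with 4567 and 5079 counts in siNC at 0 h, 9561 and 9484 at 3 h and 13864 and 14478 at 6 h, had 5232 and 5258, 9262 and 10067, and 13270 and 13409 in siCPSF6, and the average difference was 0.02 (adjusted p = 0.68).

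SLC25A29, a carrier of basic amino acids, and SLC25A38, which supplies glycine for heme synthesis, also fell. SLC25A29 had 292 and 401 counts in siNC at 0 h, 262 and 298 at 3 h and 205 and 213 at 6 h, against 191 and 216, 158 and 138, and 113 and 114 in siCPSF6. SLC25A38 had 637 and 752, 490 and 505, and 539 and 601 in siNC, and 481 and 553, 256 and 340, and 253 and 325 in siCPSF6. For both genes the silenced pair was below the control pair at each time, with differences of -0.85 (SE 0.09, limma adjusted p = 7.7e-07) and -0.72 (SE 0.09, adjusted p = 3.2e-06). At 0 h SLC25A38 passed (-0.42, limma adjusted p = 0.034), and did not without siNC replicate 2 or siCPSF6 replicate 1 of that time (-0.30 and -0.32). Its 0 h call was also lost with median-ratio or spike-in scaling, in TPM and without trend and robust settings (adjusted p 0.056 to 0.1).

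Citrin, SLC25A13, had 2059 and 1908 counts in siNC at 0 h, 2626 and 2701 at 3 h and 3295 and 3638 at 6 h, and 1664 and 1730, 2081 and 2240, and 2114 and 2228 in siCPSF6. The silenced pair was the lower at each time and the gap widened to 6 h, for an average of -0.40 (SE 0.04, limma adjusted p = 7e-07). The paralog SLC25A12 differed by -0.03 (adjusted p = 0.80), but in TPM it rose by 0.32 (adjusted p = 0.033). SLC25A20, the carnitine/acylcarnitine carrier of fatty acid oxidation, fell by 0.45 (adjusted p = 0.0018).

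SLC25A44, a carrier of branched-chain amino acids, had the largest rise in this group. Its counts in siNC were 610 and 650 at 0 h, 341 and 332 at 3 h and 308 and 344 at 6 h, and in siCPSF6 they were 753 and 887, 571 and 627, and 530 and 501. The silenced pair was higher at each time, and the fold was 1.54 (log2 difference 0.62, SE 0.06, limma adjusted p = 2.9e-07). The glutamate carrier SLC25A22 rose by 0.21 (adjusted p = 0.0017), a call lost with spike-in scaling (0.17, adjusted p = 0.13) and in TPM (0.15, adjusted p = 0.073). The ornithine carrier SLC25A15, part of the urea cycle, rose by 0.19 (limma adjusted p = 0.0022). At 0 h its 840 and 762 counts in siNC stood below 928 and 933 in siCPSF6 (0.22, adjusted p = 0.043). That call was lost without siNC replicate 2 or either siCPSF6 replicate at 0 h, or either siNC library at 3 h (0.15 to 0.22). It was also lost with spike-in scaling (0.11, adjusted p = 0.69), with no filter (adjusted p = 0.076) and without trend and robust settings (adjusted p = 0.063).

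Of the nucleotide, cofactor and vitamin carriers 3 rose, 3 fell and 3 did not pass, beside 34.4% higher and 35.4% lower of all genes. The coenzyme A carrier SLC25A42 had 433 and 464 counts in siNC at 0 h, 472 and 489 at 3 h and 337 and 293 at 6 h, against 146 and 167, 154 and 184, and 127 and 139 in siCPSF6. All silenced libraries lay below all control libraries, and the fold was 0.374 (log2 difference -1.42, SE 0.08, limma adjusted p = 5e-10). The TPM of this gene differed less, by -0.90 (SE 0.14, adjusted p = 0.00021). SLC25A36, a carrier of pyrimidine nucleotides, fell by 0.20 in normalized counts (adjusted p = 0.003), but differed by -0.02 in TPM (adjusted p = 0.87) and by -0.12 without the 6 h libraries (adjusted p = 0.084). The S-adenosylmethionine carrier SLC25A26 fell by 0.14 (adjusted p = 0.047), a call that 9 of the 12 single-library omissions lost (adjusted p 0.052 to 0.15; it held without siNC 3 h replicate 2, siNC 6 h replicate 1 or siCPSF6 3 h replicate 2).

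SLC25A33, the close paralog of SLC25A36 and also a pyrimidine nucleotide carrier, rose. It had 1622 and 1626 counts in siNC at 0 h, 1581 and 1845 at 3 h and 1484 and 1824 at 6 h, against 1891 and 1973, 2200 and 2453, and 2493 and 2903 in siCPSF6. All silenced libraries lay above all control libraries (log2 difference 0.47, SE 0.06, limma adjusted p = 8.7e-06). SLC25A17, which carries cofactors across the peroxisomal membrane, showed the same separation, with 602 and 606, 472 and 553, and 573 and 542 counts in siNC and 675 and 653, 723 and 746, and 618 and 703 in siCPSF6. Its difference was 0.30 (SE 0.06, adjusted p = 0.00025). The mitochondrial NAD carrier SLC25A51, with 254 and 263, 328 and 385, and 327 and 337 counts in siNC and 298 and 340, 404 and 422, and 411 and 459 in siCPSF6, was higher at each time (0.30, SE 0.07, adjusted p = 0.001); the genome holds a near-identical paralog, SLC25A52, which was not analysed here. The folate carrier SLC25A32 and SLC25A16 did not pass (-0.05 and 0.00), but in TPM SLC25A16 rose by 0.33 (adjusted p = 0.014).

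Neither mitoferrin, the iron carriers SLC25A37 and SLC25A28, passed in the average (0.05 and -0.16, limma adjusted p = 0.52 and 0.12), but in TPM SLC25A37 rose by 0.36 (adjusted p = 0.0099) and SLC25A28 fell by 0.21 (adjusted p = 0.031). Of the relatives of the uncoupling proteins, SLC25A14 fell by 0.32 (adjusted p = 0.02), a call lost without siNC 0 h replicate 2, siNC 3 h replicate 1 or replicate 1 of siCPSF6 at 0 or 6 h (adjusted p 0.053 to 0.082). SLC25A30 differed by 0.07 in the average (adjusted p = 0.39), although it was lower in siCPSF6 at 0 h, where its 976 and 868 counts in siNC stood against 566 and 554 (-0.72, SE 0.11, adjusted p = 0.00015).

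Among 5 less characterised members were the largest fall and the largest rise of the family. SLC25A45 had 60 and 74 counts in siNC at 0 h, 115 and 126 at 3 h and 82 and 73 at 6 h, against 16 and 16, 32 and 34, and 28 and 48 in siCPSF6. All silenced libraries lay below all control libraries, with a fold of 0.323 over the times (log2 difference -1.63, SE 0.15, limma adjusted p = 1.8e-07) and 0.251 at 0 h. SLC25A43 had 406 and 417, 337 and 339, and 442 and 474 counts in siNC and 232 and 225, 181 and 179, and 186 and 181 in siCPSF6. It too showed no overlap (fold 0.493, log2 difference -1.02, SE 0.06, adjusted p = 1.7e-09).

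SLC25A53 had 23 and 25 counts in siNC at 0 h, 28 and 16 at 3 h and 51 and 57 at 6 h, against 59 and 54, 58 and 66, and 85 and 116 in siCPSF6. The silenced pair was higher at each time (fold 2.28, log2 difference 1.19, SE 0.16, limma adjusted p = 8.8e-06). SLC25A45 and SLC25A53 rest on few reads, and SLC25A53 overlaps ZCCHC18 on the other strand. Of the remaining members of this group, SLC25A46, an outer membrane protein that takes part in mitochondrial dynamics, differed by -0.11 (adjusted p = 0.14) and SLC25A35 by 0.01 (adjusted p = 0.95).

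The time course asks which carrier mRNAs were left after transcription was blocked. The normalized counts were scaled to an equal upper quartile in each library, so a rise at 6 h is a rise relative to that quartile. The median of all genes itself rose on this scale (0.305 in siNC and 0.354 in siCPSF6). A member called higher was therefore not necessarily lost more slowly than most genes. In siNC 30 of 38 members passed between 0 and 6 h, 22 higher and 8 lower, against 79.3% of all genes (48.6% higher and 30.7% lower), and the members' median was 0.476 against 0.305. In siCPSF6 29 passed, 21 higher and 8 lower, against 77.4% (49.8% and 27.6%), with a median of 0.389 against 0.354. Scaling to the spike-ins, which were added to a fixed mass of total RNA, moved the median of all genes to -0.70 in siNC and -0.58 in siCPSF6, with 3 members higher and 20 lower in siNC and 1 and 22 in siCPSF6. In TPM the medians were -0.50 and -0.37, with 9 and 17 members in siNC and 5 and 17 in siCPSF6. Of 12939 genes, spike-in scaling called 8745 in siNC, 1095 of them higher, and 7622 in siCPSF6, 438 of them higher. Of 12188 genes, TPM called 8463 in siNC, 1977 of them higher, and 7650 in siCPSF6, 1743 of them higher. Of all genes called, 61.3% were higher in siNC on the upper-quartile scale, 12.5% with spike-ins, 23.4% in TPM and 50.7% by median ratios. The corresponding shares for silenced cells were 64.3%, 5.7%, 22.8% and 51.4%. Directions below therefore name the scale. The summed TPM of 7 mitochondrially encoded mRNAs was 97124.2 to 97698.8 at 0 h and 46635.5 to 47221.1 at 6 h in siNC; its part in the members' TPM was not tested.

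**Figure D3:**
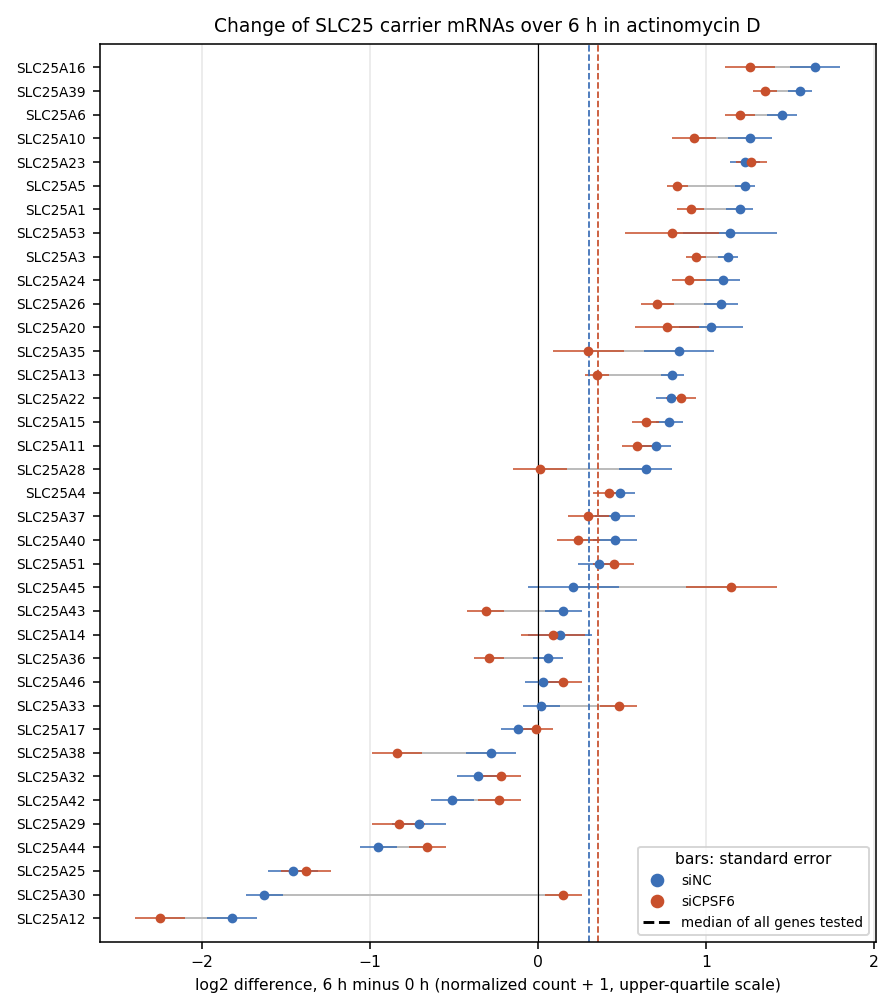
Log2 difference of normalized count between 6 h and 0 h in actinomycin D for 37 members, blue in siNC and red in siCPSF6, with bars of 1 standard error; dashed lines are the medians of all genes tested. SLC25A16 and SLC25A39 lie at the top (1.65 and 1.56 in siNC), SLC25A12 at the bottom (-1.82 and -2.25), and SLC25A30 has the widest gap between the arms (-1.63 and 0.15).

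The carriers with the highest levels were among those that rose most against the upper quartile. SLC25A39 rose by 1.56 in siNC (SE 0.07, limma adjusted p = 2.3e-11) and by 1.35 in siCPSF6, and passed as higher in both arms also with spike-in scaling (0.54 and 0.41) and in TPM (0.65 and 0.57). The X entry of SLC25A6, the one tested, had 6241 and 6106 counts in siNC at 0 h, 12616 and 11789 at 3 h and 18320 and 15506 at 6 h. In siCPSF6 it had 6637 and 5979, 11209 and 10388, and 15492 and 13602. This was a rise of 1.45 in siNC and 1.20 in siCPSF6 on the upper-quartile scale, and of 0.43 and 0.27 with spike-ins, of which the second did not pass (adjusted p = 0.11). SLC25A3 and SLC25A5 rose by 1.13 and 1.23 in siNC, but with spike-ins they differed by 0.12 and 0.22 (adjusted p = 0.48 and 0.19).

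SLC25A16, placed here with the cofactor carriers, had the largest rise in siNC. Its counts were 182 and 219 at 0 h, 412 and 466 at 3 h and 611 and 645 at 6 h in siNC, and 228 and 253, 339 and 460, and 516 and 643 in siCPSF6. The 6 h libraries lay above the 0 h libraries in both arms, with rises of 1.65 (SE 0.15, limma adjusted p = 9.1e-08) and 1.26, and of 0.64 (adjusted p = 0.0094) and 0.32 (adjusted p = 0.20) with spike-ins. SLC25A23 rose by 1.23 in siNC and 1.27 in siCPSF6, from 992 and 1021 counts to 2526 and 2212 and from 1070 and 1165 to 2829 and 2557. With spike-ins it differed by 0.22 and 0.33, neither of which passed (adjusted p = 0.22 and 0.068). SLC25A10 rose by 1.26 and 0.93, but with spike-ins it differed by 0.24 and -0.01 (adjusted p = 0.29 and 0.98). SLC25A45 rose by 1.15 in siCPSF6 (adjusted p = 0.0011) and differed by 0.21 in siNC (adjusted p = 0.47); with spike-ins the values were 0.25 and -0.79, the second passing as lower (adjusted p = 0.025).

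A smaller set fell on all of the scales in at least 1 arm. SLC25A12 had 331 and 300 counts in siNC at 0 h, 232 and 227 at 3 h and 78 and 101 at 6 h, and 377 and 369, 197 and 224, and 76 and 79 in siCPSF6. Each time lay below the one before in both arms, and the fall was 1.82 in siNC (fold 0.284, SE 0.15, limma adjusted p = 1.7e-08) and 2.25 in siCPSF6 (fold 0.21, adjusted p = 2.5e-09). With spike-ins the values were -2.82 and -3.18, and in TPM -2.49 and -2.34. SLC25A13, its paralog, went the other way on the upper-quartile scale, by 0.80 and 0.35, but with spike-ins it was at -0.21 and -0.58. SLC25A12 shares its locus with the opposite-strand genes HAT1 and METAP1D.

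SLC25A25 fell early. It had 441 and 443 counts in siNC at 0 h, 149 and 133 at 3 h and 181 and 142 at 6 h, and 412 and 381, 131 and 129, and 166 and 139 in siCPSF6. The 3 h and 6 h libraries lay in 1 range well below those of 0 h, for falls of 1.46 and 1.38 between 0 and 6 h (SE 0.15 in both, limma adjusted p = 2.1e-07 and 4.9e-07) and of 1.64 and 1.60 between 0 and 3 h. Its paralogs SLC25A23 and SLC25A24 were higher at 6 h on this scale in both arms (1.10 and 0.90 for SLC25A24, but 0.09 and -0.04 with spike-ins). SLC25A44 fell by 0.95 in siNC and 0.66 in siCPSF6, and SLC25A29 by 0.71 and 0.83. SLC25A38 fell by 0.84 in siCPSF6 (adjusted p = 0.00012) and differed by -0.28 in siNC (adjusted p = 0.098). On the TPM scale and with spike-ins these 3 genes passed as lower in both arms. SLC25A42 and SLC25A32 also passed as lower in siNC on the upper-quartile scale, with spike-ins (-1.52 and -1.37) and in TPM (-1.40 and -1.22). The upper-quartile call of SLC25A32 was lost without siNC replicate 1 at 0 h or at 6 h (-0.32 and -0.23).

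**Figure D4:**
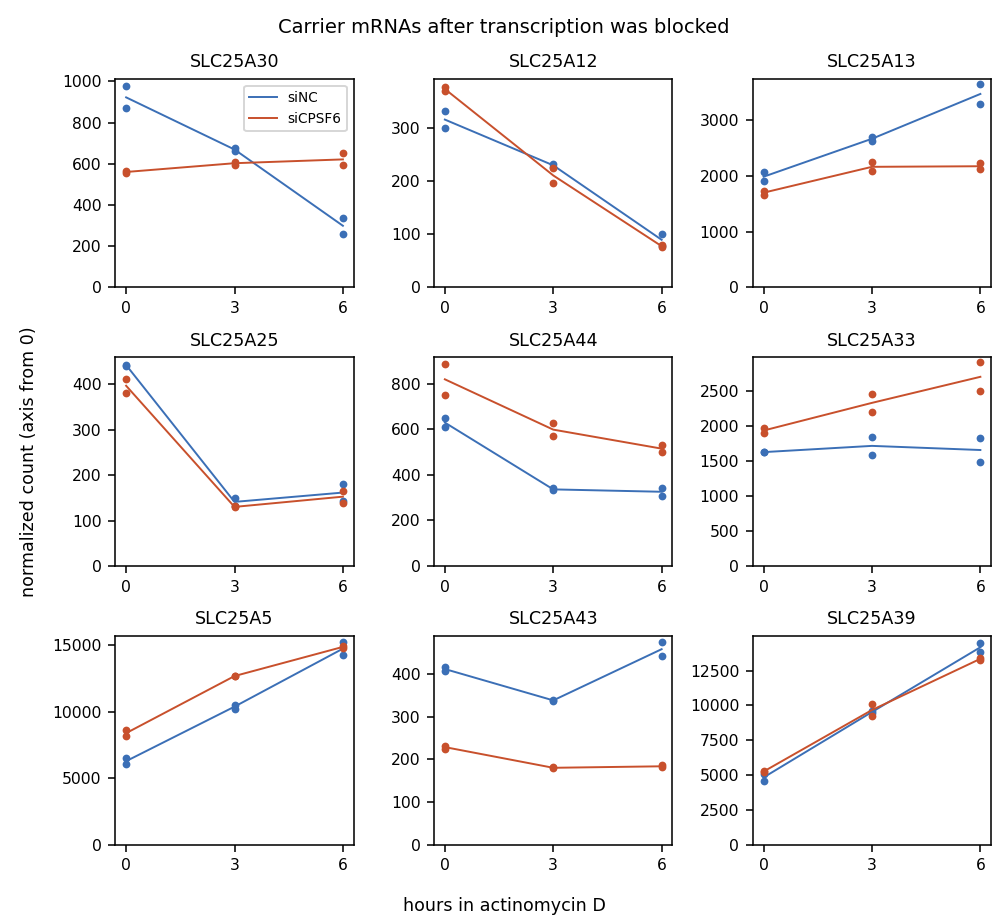
Normalized counts of 9 members against hours in actinomycin D, each panel with its own axis from 0; points are single libraries and lines join group means, blue for siNC and red for siCPSF6. SLC25A30 falls in siNC (976 and 868 to 261 and 337) and stays level in siCPSF6 (566 and 554 to 650 and 592), while SLC25A12 and SLC25A25 fall in both arms.

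The change over 6 h differed between the arms for 6 of 38 members, 3 higher and 3 lower in siCPSF6, against 24.4% of all genes (12% higher and 12.4% lower). With the replicate number as a block, 3 members were higher and 12 lower, where 4395 of 12939 genes were called, 47.8% of them higher. Of all genes called in the main fit, 49.1% were higher, against 75.5% with spike-in scaling and 65.9% in TPM. This comparison shares its libraries with those at 0 h and between 0 and 6 h in each arm. The widest difference was in SLC25A30, a relative of the uncoupling proteins. It had 976 and 868 counts in siNC at 0 h, 675 and 663 at 3 h and 261 and 337 at 6 h, and in siCPSF6 566 and 554, 596 and 609, and 650 and 592. The silenced pair was the lower at 0 h and at 3 h and the higher at 6 h, and the controls fell by 1.63 (fold 0.323, SE 0.11, limma adjusted p = 2.6e-09) while the silenced cells differed by 0.15 (adjusted p = 0.25). The difference between these changes was 1.78 (SE 0.16, adjusted p = 4e-06), 1.85 with spike-in scaling and 1.99 in TPM, both passing, and 0.57 over the first 3 h (adjusted p = 0.074). On the spike-in scale SLC25A30 was lower at 6 h in both arms (-2.64 and -0.79). Opposite-strand genes at its locus are SLC25A30-AS1 and TPT1-AS1.

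Of the other members that passed, SLC25A33 differed by 0.46 (SE 0.15, limma adjusted p = 0.039), being level in siNC (0.02) and higher at 6 h in siCPSF6 (0.48, but -0.46 with spike-ins). SLC25A13 went the other way (-0.45, SE 0.10, adjusted p = 0.0063), as did SLC25A5 (-0.40, SE 0.09, adjusted p = 0.0048) and SLC25A43 (-0.47, SE 0.15, adjusted p = 0.038). With spike-in scaling SLC25A30 was the 1 member that passed, where 916 of 12939 genes were called. None passed over the first 3 h by limma, where 387 of 12939 genes were called. At an unadjusted p under 0.05, 4 members were higher over those 3 h and 3 lower. The call of SLC25A33 was lost without any 1 library at 0 h, the first control replicate at 6 h or the second silenced replicate at 6 h (adjusted p 0.072 to 0.14), and that of SLC25A43 without any 1 library at 0 h, siNC 6 h replicate 2 or either siCPSF6 library at 6 h (0.065 to 0.11).

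The deposited tables also carry a trace of transcript length. TPM divides by the effective length that the estimate gives a gene's transcripts, so the log2 ratio of normalized count to TPM follows that apparent length. It can move when the mix of annotated transcripts moves, at either end. The ratio was tested as it stands, and values by library are given relative to the median of 20 spike-ins of the same library. In this test 7 of 38 members passed, all shorter in siCPSF6, against 11.1% of all genes (0.737% longer and 10.3% shorter). No member was longer, also at an unadjusted p under 0.05 (limma), and the median of the members was -0.017 against -0.018 over all genes and -0.008 over the spike-ins. Centred on the spike-ins, an alternative chosen after seeing the data, 9 members were shorter and 0 longer by limma (0 longer unadjusted). There 1821 of 12895 genes were called, of which 236 were longer and the rest shorter.

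Cleavage factor Im binds UGUA (TGTA in DNA letters) upstream of the poly(A) signal, most often AATAAA and less often ATTAAA, so an annotated 3′ end of each shortened member was read from GENCODE release 29 (hg38). For each gene 1 end was read, the furthest downstream among protein-coding transcripts of the release's basic set with a complete end. Other annotated ends were not read. The annotated genes SLC25A23 and SLC25A46 run past the ends shown, to chr19:6436079 and chr5:110765161. Of the 7, SLC25A15 had neither hexamer in its last 50 bases, and SLC25A37 is not shown. The 30 bases that end with the hexamer are given for the other 5, with the hexamer and any TGTA in capitals.

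SLC25A42: gatttgtgccaagagagtatatttAATAAA
SLC25A46: atggcttgtctgagaggaaacaaaATTAAA
SLC25A53: tcttctagctattttgaaatacacAATAAA
SLC25A17: ttctcaaaggaaagagattaaTGTATTAAA
SLC25A23: atttcaaaggaaaagaacaaaaggAATAAA

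These lie at chr19:19112843-19112872 (plus strand, SLC25A42), chr5:110762742-110762771 (plus strand, SLC25A46), chrX:104099230-104099259 (minus strand, SLC25A53), chr22:40769647-40769676 (minus strand, SLC25A17) and chr19:6440079-6440108 (minus strand, SLC25A23), each in the 3′UTR of the transcript used. In SLC25A17 the TGTA overlaps the hexamer ATTAAA. On the sense strand, AATAAA was found in the last 50 bases of 25 of 38 members (65.8%), against 63.3% of 11646 protein-coding genes tested, and ATTAAA without AATAAA in 8 (21.1%), against 14.9%. TGTA was found in the last 100 bases of 20 members (52.6%), against 53.6%, and of 2 of the 7 shortened members. The median 3′UTR was 1188 bases long in the members, 1911 in the 7 and 1151.5 over all genes. A match of letters is a description and not a site.

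SLC25A42, which also had the second largest fall in count, had the largest change in apparent length. Its log2 values in siNC were 1.79 and 1.56 at 0 h, 1.89 and 1.69 at 3 h and 1.53 and 1.91 at 6 h, and in siCPSF6 1.36 and 1.09, 1.21 and 1.21, and 1.03 and 1.52. The silenced pair was lower at each time, with the highest silenced value just under the lowest control value, and the difference was -0.50 (SE 0.11, limma adjusted p = 0.029; 0.052 with the replicate block). The call was also lost without any 1 of 6 libraries (siNC 0 h and 3 h replicate 1 and 6 h replicate 2, siCPSF6 0 h replicate 2, both at 3 h; adjusted p 0.068 to 0.085). SLC25A46 had 2.36 and 2.40, 2.23 and 2.14, and 2.13 and 2.35 in siNC, and 1.98 and 1.99, 1.99 and 1.81, and 2.01 and 1.96 in siCPSF6. Its values did not overlap between the arms, for a difference of -0.32 (SE 0.05, adjusted p = 0.0037) in a gene whose count did not pass in the average (-0.11).

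The mitoferrin SLC25A37 had 2.0 and 1.98, 1.78 and 1.90, and 1.63 and 1.72 in siNC, and 1.65 and 1.59, 1.34 and 1.61, and 1.53 and 1.45 in siCPSF6. The silenced pair was below the control pair at each time (-0.31, SE 0.05, limma adjusted p = 0.0045). SLC25A17 had 1.30 and 1.22, 1.33 and 1.27, and 1.07 and 1.25 in siNC, against 0.98 and 1.04, 1.07 and 1.02, and 1.01 and 1.06 in siCPSF6. Here the arms touched only at 1.07 (-0.22, SE 0.04, adjusted p = 0.0078). SLC25A53 fell from -0.03 and 0.31 at 0 h to -0.68 and -0.69 at 6 h in siNC and lay between -0.69 and -0.49 in all silenced libraries, so that the arms stood apart at 0 and 3 h and met at 6 h (-0.28, SE 0.05, adjusted p = 0.012). SLC25A23 and SLC25A15 differed by -0.12 (adjusted p = 0.015) and -0.13 (adjusted p = 0.042). SLC25A15 lost its call without any 1 library other than siNC 3 h replicate 2, and SLC25A23 lost it on leaving out replicate 1 of siNC at 0 h or of siCPSF6 at 3 h (adjusted p up to 0.12 and 0.056). SLC25A3 and SLC25A39, at the top of the family, differed by -0.01 and -0.02 and did not pass.

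**Figure D5:**
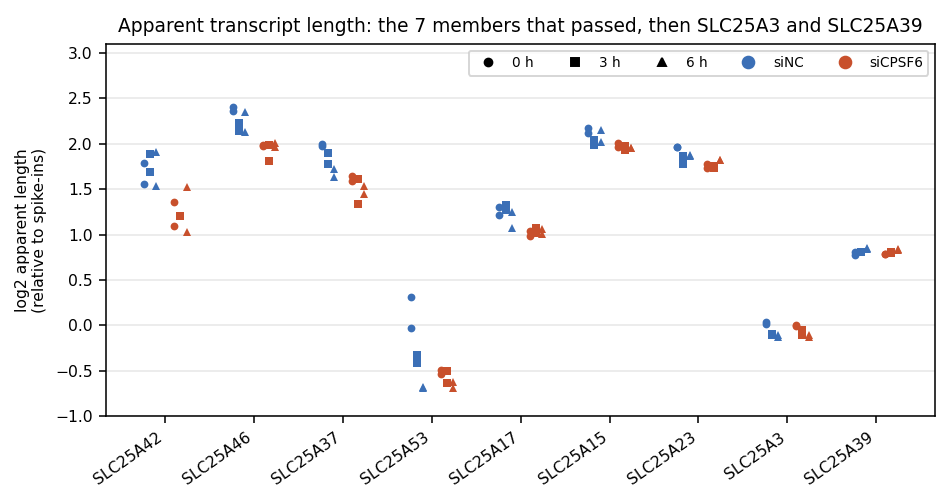
Log2 apparent transcript length relative to the spike-ins, by library, for the 7 members that passed and, for comparison, SLC25A3 and SLC25A39; blue is siNC and red siCPSF6, and the symbol gives the time. In SLC25A46 the silenced libraries (1.81 to 2.01) lie below the control libraries (2.13 to 2.40), while in SLC25A39 the arms lie together.

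A list of 57 genes around the carriers, of which 53 were tested, covered their import route, other membrane carriers and channels, and enzymes that share a substrate with them. In the average over times 19 of the 53 rose, 22 fell and 12 did not pass, beside the 34.4% higher and 35.4% lower of all genes tested. The largest falls were in MPC1 (-1.34, SE 0.06, limma adjusted p = 2.6e-11) and MPC2 (-0.87, adjusted p = 2.5e-08), the subunits of the mitochondrial pyruvate carrier, which has another fold, and in CPS1, the first enzyme of the urea cycle (-0.97, adjusted p = 1e-09). The largest rises were in LETM1, a cation exchanger of the inner membrane (0.96, adjusted p = 2.1e-11), TOMM22, a receptor of the outer membrane import pore (0.79, adjusted p = 6.5e-10), and TIMM8A, a small chaperone of the intermembrane space (0.71, adjusted p = 2.3e-05). Of 13 genes of the import route, 7 rose and 5 fell, and of 21 enzymes 7 rose and 11 fell.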

How the data were processed

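Spike-in RNA went into 5 µg of total RNA before directional mRNA libraries were made, per the labels' protocols, so that scaling to it is per mass of RNA. The submitters' processing notes name STAR, RSEM and hg38. Which versions, annotation and strand setting were used is not given in the sources used here. Values in the first deposited table, called normalized counts, are treated as a score, because, as the values themselves show, the authors' gene counts had been brought to 1 upper quartile (660.5 or 661) and rounded. A second table deposited by the authors holds TPM. Tests made for raw counts were therefore not run.

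Differences were estimated on log2(normalized count + 1) by limma (version 3.58.1 in R 4.3.3; moderated with a trend, robustly) in 1 fit of the 12 libraries (6 groups, 6 residual degrees of freedom), over 12939 genes with a mean of at least 20, two-sided, with Benjamini-Hochberg adjustment and a threshold of 0.05. The code was tested on simulated data. Apparent length was log2((normalized count + 1)/(TPM + 0.01)) over 12895 genes. Alternatives were other pseudocounts, filters and scalings, TPM, limma without trend and robust settings, the replicate block, only the groups compared and single libraries left out; a fit without 6 h, one of 3 h in place of 6 h, and lengths centred on the spike-ins were added after seeing the data. Libraries with the same replicate number deviated together from their groups (correlations of 0.11 to 0.24 over 15 pairs of groups). The numbers were therefore taken as pairing in the replicate block, which is an alternative. The main fit had no term for the replicate, so its p-values do not use the pairing. No label names a batch behind it. The members, roles and lists were chosen with earlier results of these data known. Values by library are given for the 5 largest rises and falls that passed in each comparison, the highest members by TPM and close paralogs, and related genes for the 3 largest changes in each direction; results of 1 member are not reported here, though the counts of members include it. Of the members 21 overlap a gene on the opposite strand and 12 one on their own strand in GENCODE release 29, which supplied the 3′ ends.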

Additional observations from a re-analysis of the deposited data

Results flagged for a closer look

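For these 5 members the change from 0 to 6 h in actinomycin D differed between siCPSF6 and siNC by the test of that difference itself (limma interaction, Benjamini-Hochberg adjusted). The difference, siCPSF6 minus siNC on the log2 scale, was 1.78 for SLC25A30 and 0.46 for SLC25A33, and it was -0.47 for SLC25A43, -0.45 for SLC25A13 and -0.40 for SLC25A5. SLC25A30 alone of these passed with spike-in scaling (1.85, adjusted p = 2.4e-06), and SLC25A30 (1.99, adjusted p = 0.00036) and SLC25A5 (-0.29, adjusted p = 0.019) passed in TPM. In SLC25A30 the arms differed in opposite directions at 0 and 6 h, with 566 and 554 normalized counts in siCPSF6 against 976 and 868 in siNC at 0 h, and 650 and 592 against 261 and 337 at 6 h. No group had enough libraries for a check of single outlying samples.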

How the results depend on the processing

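Of the members that passed, those that passed in the same direction under every alternative that tested them were 17 of 25 in the average over times, 6 of 13 at 0 h, 8 of 30 for 6 h against 0 h in siNC, 7 of 29 for the same in siCPSF6, 0 of 6 for the difference between the arms and 4 of 7 for apparent length. SLC25A45 and SLC25A53 (mean counts 58.7 and 53.2) were not tested with a mean of at least 100. These shares leave that alternative out for them. No member reversed in the average, at 0 h, in the difference between the arms or in length. At 0 h the count of members higher was 4 and became 7 with median-ratio scaling, 1 with spike-in scaling and 7 with the replicate block. Of 12939 genes, 2825 were higher in the main fit, and 3238, 1165 and 3348 in these alternatives. For 6 h against 0 h, spike-in scaling gave 3 higher and 20 lower in siNC and 1 and 22 in siCPSF6, and TPM gave 9 and 17 in siNC and 5 and 17 in siCPSF6. Spike-in scaling called 8745 and 7622 of 12939 genes in the 2 arms, 12.5% and 5.7% of them higher. TPM called 8463 and 7650 of 12188, 23.4% and 22.8% of them higher. For the difference between the arms, 5 were lower with a mean of at least 100 or with median-ratio scaling and 12 with the replicate block, 1 was higher without trend and robust settings, TPM gave 1 in each direction, and spike-in scaling gave 1 higher and 0 lower (limma; 4 higher and 0 lower at an unadjusted p under 0.05). Of 12939 genes, 3163 were called with median ratios, 4395 with the block, 2478 without trend and robust settings and 916 with spike-ins. The filter at a mean of 100 had 3125 of 10545 genes called, and TPM 1566 of 12188. With 3 h in place of 6 h, 0 members passed in either direction by limma, where 387 of 12939 genes were called (4 members higher and 3 lower unadjusted). Apart from the length of SLC25A42, the replicate block ended no member's call. In length, no member was longer by limma under any alternative run. At an unadjusted p under 0.05, counted in all alternatives but the single-library omissions, 0 were longer except 1 with a pseudocount of 10.

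Leaving out 1 library at a time gave 2 to 5 members higher at 0 h (2 without siCPSF6 0 h replicate 2), 1 to 4 higher and 2 to 5 lower for the difference between the arms (1 higher without any 1 library at 0 h, siNC 6 h replicate 1 or siCPSF6 6 h replicate 2; 5 lower without either siCPSF6 library at 3 h), and 4 to 8 shorter (4 without siNC 0 h replicate 1).

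With spike-in scaling these members reversed between 0 and 6 h in siNC: SLC25A11 -0.31, SLC25A13 -0.21, SLC25A15 -0.23, SLC25A22 -0.22, SLC25A28 -0.37, SLC25A35 -0.17, SLC25A37 -0.55, SLC25A4 -0.53, SLC25A40 -0.55 and SLC25A51 -0.65. In siCPSF6 they were SLC25A1 -0.02, SLC25A10 -0.01, SLC25A11 -0.35, SLC25A13 -0.58, SLC25A15 -0.30, SLC25A20 -0.16, SLC25A22 -0.09, SLC25A24 -0.04, SLC25A26 -0.23, SLC25A33 -0.46, SLC25A37 -0.63, SLC25A4 -0.51, SLC25A5 -0.11, SLC25A51 -0.49 and SLC25A53 -0.12. In TPM the reversals in siNC were SLC25A11 -0.28, SLC25A13 -0.08, SLC25A15 -0.01, SLC25A22 -0.10, SLC25A28 -0.03, SLC25A37 -0.09, SLC25A4 -0.80, SLC25A40 -1.19 and SLC25A51 -0.67. Those in siCPSF6 were SLC25A11 -0.26, SLC25A13 -0.39, SLC25A15 -0.06, SLC25A24 0.00, SLC25A26 -0.05, SLC25A33 -0.29, SLC25A37 -0.30, SLC25A4 -0.77 and SLC25A51 -0.35. With 3 h in place of 6 h in siNC, SLC25A42 was at 0.10 and SLC25A53 at -0.17. These scalings move the median of all genes by their construction; the cause of single changes was not tested. Groups of 2 libraries limit the precision, and members with few counts, such as SLC25A45 and SLC25A53, have the widest standard errors.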

Other observations

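Genes around the carriers also moved over the time course, on the upper-quartile scale. Between 0 and 6 h in siNC, 39 of 53 tested were higher and 7 lower, against 48.6% and 30.7% of all genes, and in siCPSF6 41 and 5, against 49.8% and 27.6%. Of the 13 genes of the carriers' import route, 7 were higher in siNC and 6 lower. The largest falls of the list in siNC were in TIMM22, the channel of the insertion complex (-2.71, SE 0.16, limma adjusted p = 3.7e-10), TOMM70, a receptor for carrier precursors (-2.69, adjusted p = 1.4e-11), and TIMM9, a small chaperone (-2.54, adjusted p = 4.9e-10). The largest rises there were in TOMM22 (1.81), the serine hydroxymethyltransferase SHMT2 (1.53) and the sideroflexin SFXN2 (1.49). The change differed between the arms for 13 of the 53, 5 higher and 8 lower in siCPSF6, against 24.4% of all genes. The highest were TIMM22 (1.47, adjusted p = 0.00031), TIMM9 (0.96) and TIMM8A (0.80), and the lowest were TOMM22 (-1.18, adjusted p = 4.9e-06), MTHFD2 (-0.68) and SHMT2 (-0.62). Apparent length was shorter in siCPSF6 for 11 of the 53 (limma), against 10.3% of all genes, with the largest differences in the serine carrier SFXN1 (-1.34, adjusted p = 1.7e-06), the mitochondrial NAD kinase NADK2 (-0.57) and TIMM10B (-0.55).

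The 8 SLC25A genes below a mean normalized count of 20 were not tested. The liver carrier SLC25A47 had a mean of 11.4, SLC25A21, the oxoadipate carrier, 19.2, SLC25A27 12.7, the glutamate carrier SLC25A18 12.0 and SLC25A41 10.8, while SLC25A34, SLC25A2 and SLC25A48 were at 2.2, 0.4 and 0.3. SLC25A41, an ATP-Mg/phosphate carrier, had 11 and 8 counts in siNC at 0 h, 21 and 14 at 3 h and 25 and 19 at 6 h, and 4 and 5, 9 and 5, and 6 and 3 in siCPSF6. It was lower in siCPSF6 at each time, at a level of few reads.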
